A study of Mus musculus with 6 samples.

Results

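The collagen chain genes are the protein-coding genes whose symbol is Col, a number, a, and a number. Their members were taken by symbol alone, without regard to expression, and 44 of the 46078 genes in the count tables met the rule. Collagens are the main structural proteins of the extracellular matrix, and each is assembled in the endoplasmic reticulum from chains that wind into a helix, which is then secreted, trimmed, and cross-linked. Fibrillar collagens give connective tissue its tensile strength, basement membrane collagens form sheets under endothelium and around vessels, and other classes decorate fibrils, build finer networks or span the cell membrane. The healthy brain parenchyma holds little fibrillar collagen outside its vessels and meninges, whereas a scar in most organs is rich in it.

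Tissue was taken from wild-type C57BL/6J mice, recorded as 3 months old, at 7 weeks after stroke. Stroke was made by the DH model, a distal middle cerebral artery occlusion combined with hypoxia, which produces a cortical infarct, and the study used male mice. RNA-Seq compared 3 infarcts with 3 samples of the equivalent region of the contralateral cortex, which is tissue of the same injured animals and not of unoperated mice. The sample records name no treatment and do not link infarcts to contralateral cortices by mouse. They also do not state that the samples of a region came from separate mice, so *p* values measure only the spread between these samples. Sequencing depth, as reads assigned to genes, was 12146959, 12507336 and 13427057 (infarcts 1 to 3) against 19933962, 16610299 and 11943570 (contralateral cortices 1 to 3). Expression is given as TMM-scaled CPM. Where genes are compared with each other, the level is CPM per kilobase of the longest basic protein-coding transcript, which replaced the planned union of exons after the data were seen.

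Collagen chain genes were mostly upregulated in infarcts. Of the 44 genes, 40 passed the filter on low counts, 29 were upregulated, 4 were downregulated and 7 were not called. Calls rest on the quasi-likelihood test of edgeR, adjusted by the Benjamini-Hochberg method, and on a fold change above 2, which marked 25.7% of the 15554 genes tested as upregulated and 20.9% as downregulated. The median log2 fold change was 2.77 over the 40 tested collagen chain genes and 0.03 over all genes tested. The regions did not overlap for 33 of the 40, against 72.3% of all genes tested. The 4 downregulated genes were *Col19a1*, *Col25a1*, *Col24a1*, and *Col6a4*. The 4 genes that did not pass the filter were *Col2a1* and *Col9a1*, which encode cartilage collagens, *Col10a1*, which belongs to hypertrophic cartilage, and *Col17a1*, a collagen of the hemidesmosomes of skin. None of these 4 had more than 13 counts in any library. In bulk tissue, fewer cells of a type and less RNA per cell cannot be told apart, so all changes here are changes of a transcript's share of the tissue's RNA.

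**Figure D1:**
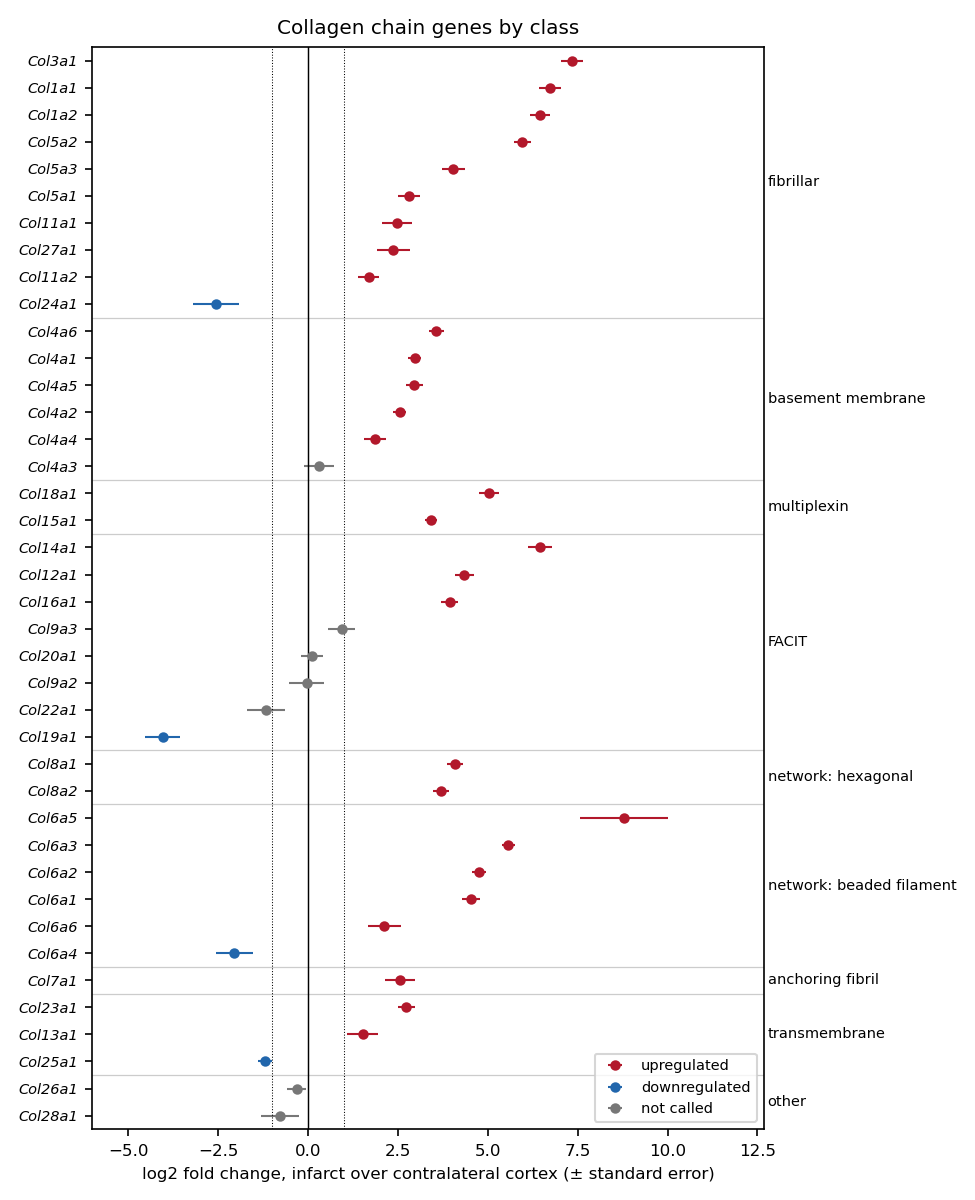
Log2 fold change (x axis, infarct over contralateral cortex) of the 40 tested collagen chain genes (y axis), grouped by class and ordered by size, with points for edgeR estimates from 3 libraries per region, bars for standard errors and dotted lines at the fold change threshold. Upregulated genes (red) number 29, and the 4 downregulated genes (blue) fall into 4 different classes.

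Together, the 44 genes took 0.881, 1.05 and 0.852% of gene counts (infarcts 1 to 3) against 0.0359, 0.0288 and 0.0275% (contralateral cortices 1 to 3). All 3 infarcts lay above all 3 contralateral cortices, which was 26.3-fold when mean summed CPM was compared (exact two-sided permutation *p* = 0.1, the smallest that 3 against 3 libraries allow). The 95% Wilson interval was widest in infarct 2, at 1.047% to 1.058%, and these intervals cover counting error only, as PCR copies of a molecule are counted more than once. Most of this gain was in *Col1a1*, *Col1a2*, and *Col3a1*. Without these 3 genes, the share was 0.302% ± 0.0355 in infarcts and 0.0260% ± 0.00480 in contralateral cortices (SD, n = 3 per region).

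The make-up of the collagen transcripts also differed between regions. On the per-kilobase scale, the fibrillar class made up 70.7, 73.9 and 73.8% (infarcts 1 to 3) against 24.1, 22.1 and 27.8% (contralateral cortices 1 to 3) of the summed collagen level. Every infarct was above every contralateral cortex. The transmembrane class made up 0.948, 0.765 and 0.860% (infarcts 1 to 3) against 16.9, 21.1 and 16.0% (contralateral cortices 1 to 3), with every infarct lower. FACIT chains, which sit on the surface of fibrils, took 5.54% ± 1.13 in infarcts and 21.2% ± 2.84 in contralateral cortices, and basement membrane chains took 3.58% ± 0.258 in infarcts and 13.0% ± 0.856 in contralateral cortices (SD, n = 3 per region). Both classes held a smaller part of the collagen total in infarcts. These are parts of a larger total, and the summed levels of these 3 classes were higher in infarcts. For the transmembrane class, the level was 14.1, 12.9 and 11.8 CPM per kilobase (infarcts 1 to 3) against 10.9, 11.4 and 8.55 (contralateral cortices 1 to 3). Mean levels in infarcts and contralateral cortices were 84.2 and 12.1 CPM per kilobase for FACIT chains, and 54.2 and 7.45 for basement membrane chains. For beaded filament chains, the shares were 12.9, 12.1 and 13.2% (infarcts 1 to 3) against 14.8, 10.8 and 14.1% (contralateral cortices 1 to 3). These shares overlapped between regions.

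**Figure D2:**
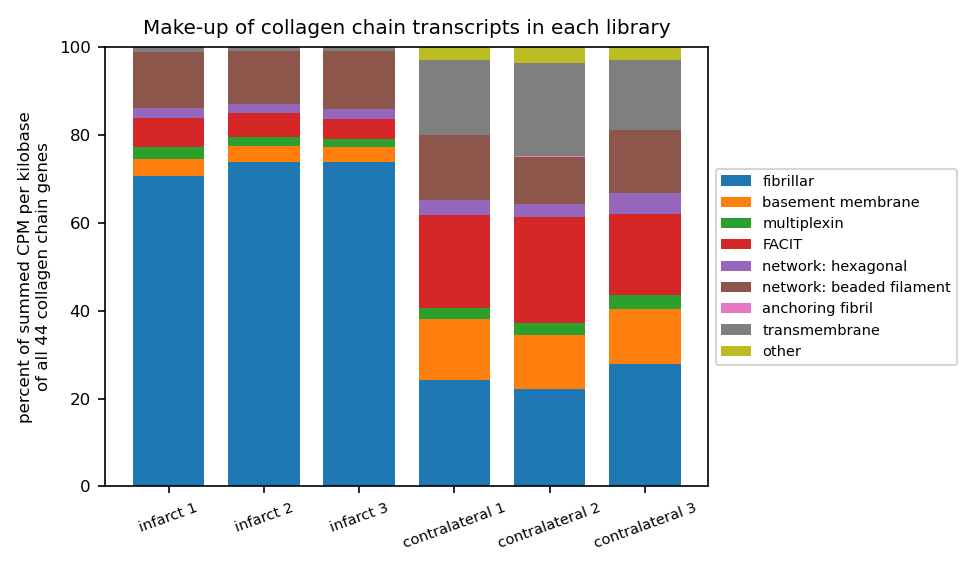
Share of each class (y axis, percent of the summed CPM per kilobase of all 44 collagen chain genes) in each of the 6 libraries (x axis), drawn as stacked bars. The fibrillar share lies between 70.7% and 73.9% in infarcts and between 22.1% and 27.8% in contralateral cortices.

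Of the 11 genes for fibrillar chains, 9 were upregulated, 1 was downregulated and 1 was not tested, and the class had a median log2 fold change of 3.42. *Col3a1* (ENSMUSG00000026043, chr1:45311538-45349706 on the forward strand), which encodes the chain of type III collagen found in vessel walls and early scar, had 2269.8, 3417 and 2255 CPM (infarcts 1 to 3) against 15.6, 13.1 and 20.1 CPM (contralateral cortices 1 to 3). The infarct values were far above the contralateral ones, and infarct 2 was the highest. For this gene, the log2 change was 7.35 ± 0.30 (SE, edgeR adjusted *p* = 1.64e-07). Per kilobase of transcript, the level of *Col3a1* (± SD, n = 3) was 476 ± 119.8 in infarcts against 2.92 ± 0.639 in contralateral tissue. By this level it ranked 39 among 21542 protein-coding genes in infarcts and 9154 in contralateral cortices.

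Type I collagen, the main collagen of fibrous scar, is built from the products of *Col1a1* and *Col1a2*. *Col1a1* (ENSMUSG00000001506, chr11:94936224-94953042 on the forward strand) had 1189, 1234 and 1255 CPM (infarcts 1 to 3) against 11.0, 7.54 and 16.4 CPM (contralateral cortices 1 to 3). The infarcts were close to each other, and no value came near those of the other region. The log2 fold change of *Col1a1* was 6.73 ± 0.31 (SE, edgeR adjusted *p* = 2.43e-07). *Col1a2* (ENSMUSG00000029661, chr6:4504814-4541544 on the forward strand) had 2134, 1909 and 1851 CPM (infarcts 1 to 3) against 22.6, 16.1 and 29.0 CPM (contralateral cortices 1 to 3), again without overlap, and the log2 change was 6.45 ± 0.27 (SE, edgeR adjusted *p* = 1.75e-07). Among protein-coding genes, the per-kilobase level of *Col1a2* ranked 60 in infarcts and that of *Col1a1* ranked 139. *Col3a1*, *Col1a2*, and *Col1a1* ranked 1, 2 and 3 among the collagen chain genes of infarcts, and 6, 4 and 9 among those of contralateral cortices. Their order depends on the length used, and with the planned union of exons the ranks were 1, 3 and 2 in infarcts and 8, 6 and 7 in contralateral cortices.

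Type V and type XI chains are built into type I and type II fibrils, where they help to set fibril diameter. *Col5a2*, *Col5a3*, and *Col5a1* had log2 fold changes of 5.96, 4.04 and 2.80, so the 3 chains of type V differed widely in their increase. *Col11a1*, *Col27a1*, and *Col11a2*, best known from cartilage, were upregulated with log2 fold changes of 2.47, 2.38 and 1.69. *Col24a1*, which encodes a fibrillar chain with an interrupted helix, went the other way. It had 0.239, 1.47 and 1.02 CPM (infarcts 1 to 3) against 8.66, 5.39 and 2.12 CPM (contralateral cortices 1 to 3). The contralateral values were spread widely, with contralateral cortex 3 only a little above infarct 2, and the regions did not overlap. This amounted to a log2 change of -2.56 ± 0.64 (SE, edgeR adjusted *p* = 0.00702), and it rests on 3, 20 and 15 counts in infarcts 1, 2 and 3.

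Basement membrane chains form the type IV collagen network. Of the 6 genes, 5 were upregulated, and *Col4a3* was not called. The median log2 fold change was 2.75. *Col4a1* (ENSMUSG00000031502, chr8:11198423-11312826 on the reverse strand) and *Col4a2* (ENSMUSG00000031503, chr8:11312805-11449287 on the forward strand) encode the chains found in nearly all basement membranes, including those of brain vessels. *Col4a1* had 211, 227 and 166 CPM (infarcts 1 to 3) against 30.3, 22.8 and 23.9 CPM (contralateral cortices 1 to 3). Infarct 3 was the lowest infarct and was still well above every contralateral cortex. On the log2 scale, the change was 2.97 ± 0.19 (SE, edgeR adjusted *p* = 9.16e-07). For *Col4a2*, the change was 2.55 ± 0.18 (SE, edgeR adjusted *p* = 1.82e-06) on the log2 scale. The genes *Col4a4*, *Col4a5*, and *Col4a6*, whose products belong to basement membranes of fewer tissues, had log2 fold changes of 1.86, 2.95 and 3.57. *Col4a3*, whose product pairs with those of *Col4a4* and *Col4a5* in kidney and lung, had 1.19, 1.32 and 1.36 CPM (infarcts 1 to 3) against 1.51, 0.715 and 0.829 CPM (contralateral cortices 1 to 3). Contralateral cortex 1 held the highest value, and the regions overlapped. The log2 fold change of *Col4a3* was 0.31 ± 0.42 (SE, edgeR adjusted *p* = 0.536), and exons of genes on the other strand cover 5.65% of its exon bases.

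The multiplexins *Col18a1* and *Col15a1* lie at the border between basement membrane and connective tissue, and endostatin is released from the former. Both were upregulated. *Col18a1* had 167, 158 and 101 CPM (infarcts 1 to 3) against 5.11, 3.25 and 4.61 CPM (contralateral cortices 1 to 3). Infarct 3 was lower than the other infarcts, and no infarct overlapped with a contralateral cortex. Infarcts over contralateral cortices gave a log2 fold change of 5.03 ± 0.27 (SE, edgeR adjusted *p* = 4.43e-07). *Col15a1* had 46.6, 46.3 and 41.9 CPM (infarcts 1 to 3) against 3.81, 4.16 and 4.70 CPM (contralateral cortices 1 to 3). No infarct overlapped with a contralateral cortex, and on the log2 scale it changed by 3.42 ± 0.18 (SE, edgeR adjusted *p* = 3.57e-07).

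Among the 9 FACIT genes, 3 were upregulated, 1 was downregulated, 4 were not called and 1 was not tested. The median log2 fold change was 0.53, closer to that of all genes than in any of the other classes with at least 3 tested genes. *Col14a1*, which binds to type I fibrils, had 286, 237 and 135 CPM (infarcts 1 to 3) against 2.45, 2.21 and 2.86 CPM (contralateral cortices 1 to 3). Infarct 3 had the lowest infarct value, and the regions were far apart. The log2 fold change was 6.46 ± 0.33 (SE, edgeR adjusted *p* = 5.30e-07). *Col12a1*, which is likewise found on fibrils of dense connective tissue, had a log2 fold change of 4.35, and *Col16a1*, which links matrix to cells, had one of 3.94.

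*Col19a1* (ENSMUSG00000026141, chr1:24261890-24587472 on the reverse strand), known in cortex for its expression in interneurons, had 0.795, 1.10 and 3.41 CPM (infarcts 1 to 3) against 32.8, 34.6 and 21.4 CPM (contralateral cortices 1 to 3). Every infarct was far below every contralateral cortex, and infarct 3 was the highest of the infarcts. *Col19a1* changed on the log2 scale by -4.04 ± 0.49 (SE, edgeR adjusted *p* = 1.73e-04), and with each library left out it was -4.94 to -3.69. In contralateral cortices, it ranked 2 among the collagen chain genes by per-kilobase level (3 with the union of exons), with 6.94 ± 1.69 CPM per kilobase, and in infarcts it ranked 34 with 0.414 ± 0.335 CPM per kilobase.

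The remaining tested FACIT genes were expressed at low levels and their values were not apart between regions. *Col9a3*, which encodes a chain of cartilage type IX collagen, had 3.18, 6.38 and 9.81 CPM (infarcts 1 to 3) against 3.18, 3.57 and 3.41 CPM (contralateral cortices 1 to 3). Infarct 3 was the highest, infarct 2 was next, and infarct 1 was level with the lowest contralateral value. The estimated log2 change was 0.94 ± 0.38 (SE, edgeR adjusted *p* = 0.0504), just short of the threshold, and 6.07% of its exon bases are covered by exons on the other strand. Without infarct 1, it was 1.28 and the gene was called (adjusted *p* = 0.00195, edgeR), and without infarct 3 it was 0.52 (adjusted *p* = 0.222, edgeR). With library totals, *Col9a3* was also called, at 1.15 (adjusted *p* = 0.0280, edgeR). *Col9a2*, for another type IX chain, had 1.91, 0.806 and 1.43 CPM (infarcts 1 to 3) against 2.03, 0.780 and 1.38 CPM (contralateral cortices 1 to 3). The libraries of both regions covered the same range, and the log2 fold change was -0.04 ± 0.48 (SE, edgeR adjusted *p* = 0.951). *Col20a1* had 2.39, 3.30 and 3.00 CPM (infarcts 1 to 3) against 2.45, 3.31 and 2.21 CPM (contralateral cortices 1 to 3), with a log2 fold change of 0.12 ± 0.31 (SE, edgeR adjusted *p* = 0.752). *Col22a1*, a collagen of tissue junctions such as that of muscle and tendon, had 0.398, 0.513 and 1.02 CPM (infarcts 1 to 3) against 2.29, 0.975 and 1.11 CPM (contralateral cortices 1 to 3). Contralateral cortex 1 was the highest and the other contralateral values lay near infarct 3. The log2 fold change of *Col22a1* was -1.18 ± 0.53 (SE, edgeR adjusted *p* = 0.0743), and without infarct 3 it was -1.67 and the gene was called (adjusted *p* = 0.0341, edgeR). Without contralateral cortex 1, the log2 change of *Col22a1* was -0.67 (adjusted *p* = 0.354, edgeR).

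Network-forming chains comprise the hexagonal lattice and the beaded filament. Of 9 such genes, 7 were upregulated, 1 was downregulated and 1 was not tested, with a median log2 fold change of 4.31. *Col8a1*, whose product builds hexagonal lattices under endothelium, had 97.7, 133 and 99.1 CPM (infarcts 1 to 3) against 6.88, 4.87 and 7.65 CPM (contralateral cortices 1 to 3). Infarct 2 was the highest, and the regions did not overlap. It changed on the log2 scale by 4.09 ± 0.22 (SE, edgeR adjusted *p* = 4.71e-07), and its partner *Col8a2* had a log2 fold change of 3.70.

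Type VI collagen forms beaded filaments around cells, and its classical chains come from *Col6a1*, *Col6a2*, and *Col6a3*. *Col6a1* (ENSMUSG00000001119, chr10:76708792-76726168 on the reverse strand) had 459, 461 and 411 CPM (infarcts 1 to 3) against 26.3, 14.0 and 17.1 CPM (contralateral cortices 1 to 3). The infarcts were close together, and contralateral cortex 1 was the highest of its region. For this gene, the log2 change was 4.53 ± 0.25 (SE, edgeR adjusted *p* = 5.07e-07). *Col6a2* had 277, 277 and 269 CPM (infarcts 1 to 3) against 10.4, 7.93 and 12.3 CPM (contralateral cortices 1 to 3), also without overlap, with a log2 fold change of 4.75 ± 0.20 (SE, edgeR adjusted *p* = 1.64e-07). *Col6a3* had a log2 fold change of 5.57.

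*Col6a4*, *Col6a5*, and *Col6a6* encode chains that can take the place of the *Col6a3* product. They lie next to each other on chromosome 9, on the same strand, and their order is *Col6a6*, *Col6a5*, and *Col6a4*, with 27917 bases between the former pair and 28810 between the latter. Their values differed. *Col6a5*, chosen for full values after these were seen, had 12.3, 92.0 and 55.4 CPM (infarcts 1 to 3) against 0, 0.0650 and 0.368 CPM (contralateral cortices 1 to 3). Infarct 1 was far below the other infarcts, and all 3 were above the contralateral cortices, which held 0, 1 and 4 counts. This amounted to a log2 change of 8.78 ± 1.22 (SE, edgeR adjusted *p* = 8.25e-04), the largest among the collagen chain genes. It was 10.48 without contralateral cortex 3, 8.02 without contralateral cortex 1 and 8.15 without infarct 2, and the call was kept. *Col6a6* was also upregulated, with a log2 fold change of 2.13 and at most 3.08 CPM in any library. *Col6a4* was downregulated. It had 0.159, 0.660 and 0.613 CPM (infarcts 1 to 3) against 2.61, 1.43 and 2.03 CPM (contralateral cortices 1 to 3), and infarct 1 had the lowest value. The regions did not overlap, and the log2 fold change was -2.05 ± 0.52 (SE, edgeR adjusted *p* = 0.00587). This rests on 2, 9 and 9 counts in infarcts 1, 2 and 3.

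*Col7a1*, which encodes the anchoring fibril of skin, had 4.29, 5.06 and 4.22 CPM (infarcts 1 to 3) against 0.939, 0.975 and 0.276 CPM (contralateral cortices 1 to 3). Contralateral cortex 3 was the lowest, every infarct was above every contralateral cortex, and the log2 fold change was 2.55 ± 0.41 (SE, edgeR adjusted *p* = 3.92e-04).

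Of the 4 transmembrane collagen genes, 2 were upregulated, 1 was downregulated and 1 was not tested. *Col25a1* (ENSMUSG00000058897, chr3:130131501-130599877 on the forward strand), a neuronal membrane collagen also known from amyloid plaques, had 20.4, 25.6 and 30.1 CPM (infarcts 1 to 3) against 61.4, 67.5 and 46.2 CPM (contralateral cortices 1 to 3). The infarcts were lower without overlap, and contralateral cortex 3 was the lowest of its region. On the log2 scale, the change was -1.20 ± 0.20 (SE, edgeR adjusted *p* = 5.53e-04). Scaling by library totals moved the middle of all genes by 0.20 on the log2 scale, and with it the fold change fell just short of the threshold and the call was lost. Tested by glmTreat against a fold change of 2, the call was also lost (adjusted *p* = 0.147, edgeR). In contralateral cortices, *Col25a1* had the highest per-kilobase level of the 44 genes, 8.71 ± 1.64 CPM per kilobase, and in infarcts it ranked 23 with 3.78 ± 0.729 CPM per kilobase.

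*Col23a1*, for another transmembrane collagen, had 58.7, 47.0 and 36.2 CPM (infarcts 1 to 3) against 8.60, 5.85 and 6.82 CPM (contralateral cortices 1 to 3). Infarct 1 was the highest and no contralateral value came near the infarcts. The log2 fold change of *Col23a1* was 2.73 ± 0.24 (SE, edgeR adjusted *p* = 6.73e-06). *Col13a1*, whose product takes part in cell adhesion and at the neuromuscular junction, changed on the log2 scale by 1.53 ± 0.43 (SE, edgeR adjusted *p* = 0.0104). Its call was lost without contralateral cortex 1 (log2 fold change 1.31, adjusted *p* = 0.0526, edgeR) and against a fold change of 2 by glmTreat (adjusted *p* = 0.109, edgeR).

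The genes *Col26a1* and *Col28a1* belong to none of these classes. *Col26a1* had 3.66, 3.81 and 3.20 CPM (infarcts 1 to 3) against 4.69, 4.87 and 3.68 CPM (contralateral cortices 1 to 3). Contralateral cortex 3 fell among the infarcts. Infarcts over contralateral cortices gave a log2 fold change of -0.32 ± 0.26 (SE, edgeR adjusted *p* = 0.295). *Col28a1*, known from the surroundings of glial cells in peripheral nerve, had 0.239, 0.513 and 1.02 CPM (infarcts 1 to 3) against 1.04, 0.975 and 1.11 CPM (contralateral cortices 1 to 3). Infarct 3 lay within the contralateral range, and the log2 fold change of -0.78 ± 0.53 (SE, edgeR adjusted *p* = 0.217) was not called. Without infarct 3, the log2 change of *Col28a1* was -1.42 (adjusted *p* = 0.0615, edgeR). Without infarct 1, it was -0.40 (adjusted *p* = 0.517, edgeR), and the gene was called in neither fit.

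**Figure D3:**
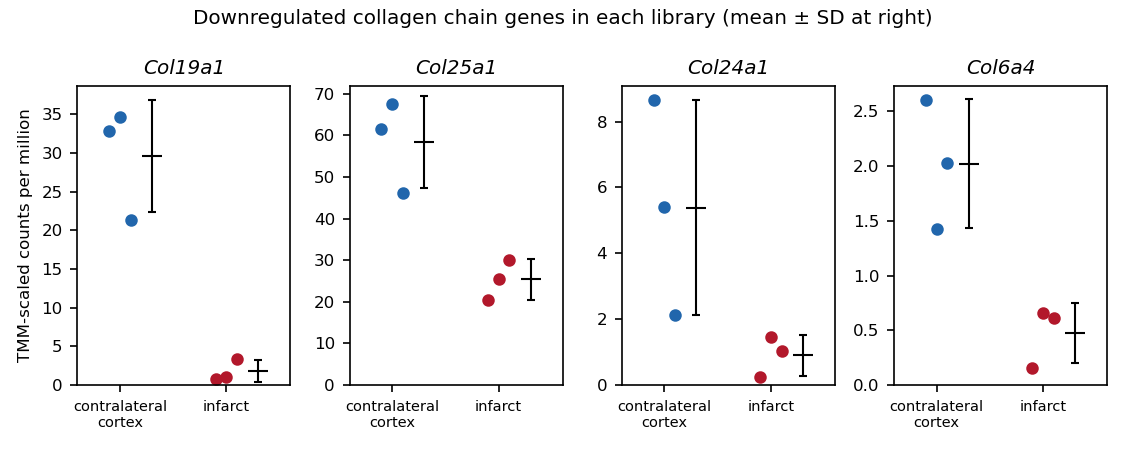
TMM-scaled CPM (y axis, each panel on its own linear scale from 0) of the 4 downregulated collagen chain genes in the contralateral cortex (blue) and the infarct (red), with 1 point per library and the mean ± SD of 3 libraries in black. In each panel, the infarct points lie below all contralateral points.

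Markers of neurons moved in the same direction as the 4 downregulated genes. All 7 neuron genes were downregulated, with a median log2 fold change of -3.09, and *Syt1* was the most abundant. Their summed level was 478, 656 and 1250.3 CPM (infarcts 1 to 3) against 7186, 7680.3 and 8408 CPM (contralateral cortices 1 to 3). Infarct 3 had the highest neuron marker level of the infarcts, as it did for *Col19a1* and *Col25a1*, but not for *Col24a1* and *Col6a4*, in which infarct 2 was the highest. No neuron gene was at 0 in infarcts. The part of neuron content in these decreases was not tested.

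Markers of fibroblasts and leptomeninges, cells that make fibrillar collagen, moved in the same direction as the upregulated genes. All 9 tested genes of 10 were upregulated, with a median log2 fold change of 4.10. Their summed level was 3611, 3066 and 2323 CPM (infarcts 1 to 3) against 281, 202 and 237 CPM (contralateral cortices 1 to 3). *Dcn* was the most abundant in infarcts. Most of the contralateral sum came from *Pdgfra*, with 111, 95.0 and 101 CPM, and *Igf2*, with 125, 64.7 and 82.9 CPM (contralateral cortices 1 to 3). *Lum*, a keratan sulfate proteoglycan of collagen fibrils, had 467, 486 and 328 CPM (infarcts 1 to 3) against 2.82, 2.14 and 3.32 CPM (contralateral cortices 1 to 3). Infarct 3 was the lowest infarct for *Lum* and in the summed level. *Dpt*, a marker of dermal fibroblasts, had at most 6 counts in any library and was not tested. Of 8 pericyte and smooth muscle genes, 5 were upregulated and 3 were not called, with a median of 1.30. Their summed level was 748, 558 and 528 CPM (infarcts 1 to 3) against 274, 248 and 299 CPM (contralateral cortices 1 to 3), led by *Rgs5*. Of 8 vascular endothelial genes, 3 were upregulated and 5 were not called, with a median of 0.59. The summed endothelial level was 567, 468 and 429.8 CPM (infarcts 1 to 3) against 338, 383 and 344 CPM (contralateral cortices 1 to 3). In infarcts, *Cdh5* and *Slco1a4* were the most abundant and nearly level, with means of 107.81 and 107.76 CPM. *Cdh5* was upregulated, with a log2 fold change of 2.06, and *Slco1a4* was not called, at -0.19. The part of these cell types in the increases was not tested.

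Other cell types were checked in the same way. Of 7 macrophage and microglia genes, 6 were upregulated, with a median of 3.20 and summed levels of 9028, 7764 and 5633 CPM (infarcts 1 to 3) against 294, 247 and 333 CPM (contralateral cortices 1 to 3), led by *Lyz2* in infarcts. Of 6 astrocyte genes, 2 were upregulated and 1 was downregulated (median 0.11), and of 6 oligodendrocyte genes, 3 were upregulated (median 1.06). Bone, muscle, and nerve sheath lie outside the brain but make the same collagens. The bone marker *Bglap* had 0, 0 and 3 counts in infarcts 1, 2 and 3, and the cartilage marker *Matn1* had 0 counts in each, while the bone gene *Ibsp* had 10, 9 and 12 and 0 in every contralateral cortex. Of the 8 bone and cartilage genes, 4 of 5 tested were upregulated, with log2 fold changes of 4.68 for *Comp*, 2.09 for *Cnmd*, 1.85 for *Sp7* and 1.61 for *Acan*, and *Dmp1* was downregulated, at -3.73. *Comp*, which encodes a cartilage matrix protein, had 5.96, 12.4 and 13.9 CPM (infarcts 1 to 3) against 0.574, 0.325 and 0.276 CPM (contralateral cortices 1 to 3). Whether infarct samples held cells of bone or cartilage was not tested. The muscle gene *Ckm* had 0 counts in every infarct, and the only tested gene of 6 for skeletal muscle, *Acta1*, was lower in infarcts. *Mylpf* had 7, 5 and 8 counts in infarcts 1, 2 and 3 against 0, 1 and 0 in contralateral cortices 1, 2 and 3, and *Tnnt3* had 1, 14 and 7 against 2, 0 and 1. The Schwann cell gene *Pmp2* had 0 counts in all 6 libraries. The choroid plexus gene *Ttr* had 0, 3 and 3 counts in infarcts 1, 2 and 3, while 3 of the 4 tested genes of 6 in its list were upregulated, led by *Aqp1*.

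Chains of the same collagen or locus were compared within each library as a log2 ratio of counts per kilobase, for 8 pairs. None could be called, since the exact two-sided permutation *p* cannot go below 0.1 with 3 against 3 libraries, or below 0.133 after Benjamini-Hochberg adjustment over the 8 pairs here. The widest shift was in type V collagen. The log2 ratio of *Col5a1* to *Col5a2* was -2.03, -2.32 and -2.15 (infarcts 1 to 3) against 1.13, 1.45 and 0.04 (contralateral cortices 1 to 3). Every contralateral cortex held more *Col5a1* than *Col5a2* and every infarct held less, a difference of -3.04 (exact permutation *p* = 0.1).

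For *Col4a3* to *Col4a4*, the log2 ratio was -1.94, -1.34 and -1.79 (infarcts 1 to 3) against 0.34, -0.94 and -0.05 (contralateral cortices 1 to 3), without overlap. The log2 ratio of *Col6a3* to *Col6a1* was -2.58, -2.38 and -2.54 (infarcts 1 to 3) against -3.92, -2.97 and -3.63 (contralateral cortices 1 to 3), higher in every infarct. For *Col4a1* to *Col4a2*, it was 1.29, 1.39 and 1.09 (infarcts 1 to 3) against 0.80, 0.88 and 0.88 (contralateral cortices 1 to 3), also higher in every infarct, and the difference was 0.40. The regions were apart as well for *Col4a5* to *Col4a6* (difference -0.60) and *Col3a1* to *Col1a1* (difference 0.55). They overlapped for *Col1a1* to *Col1a2*, with means of -0.83 in infarcts and -1.14 in contralateral cortices, and for *Col6a1* to *Col6a2*, with 0.87 and 1.06. Ratios between genes depend on the length used, while their differences between regions do not. With the planned union of all annotated exons as the length, the log2 ratio of *Col1a1* to *Col1a2* in infarcts was 0.24.

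**Figure D4:**
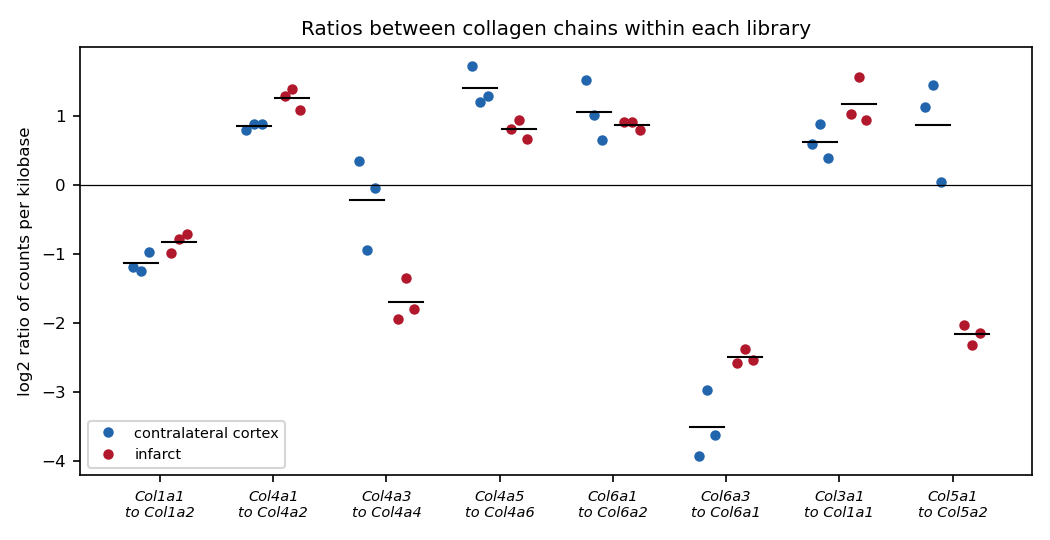
Log2 ratio of counts per kilobase (y axis) for 8 pairs of collagen chain genes (x axis) in contralateral cortices (blue) and infarcts (red), with 1 point per library and black lines for means of 3 libraries. The ratio of *Col5a1* to *Col5a2* lies above 0 in every contralateral cortex and below 0 in every infarct.

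Several members share a locus. In GENCODE M21 on GRCm38, *Col4a1* and *Col4a2* are head to head on chromosome 8 and share 22 bases, *Col4a4* and *Col4a3* are head to head on chromosome 1 with 71 bases between them, and *Col4a6* and *Col4a5* are head to head on chromosome X with 1308 bases between them. Both genes of the pair were upregulated on chromosomes 8 and X. On chromosome 1, *Col4a4* was upregulated and *Col4a3* was not called. *Col3a1* and *Col5a2* lie tail to tail on chromosome 1, 24614 bases apart, and both were upregulated. *Col9a1* and *Col19a1* lie tail to tail on the same chromosome, 9205 bases apart.

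Promoter sequences from RefSeq (GRCm38.p6), which run from 250 bases before to 50 after the start, were matched for 35 of the 44 genes. There was no entry for *Col1a1*, *Col2a1*, *Col4a3*, *Col5a2*, *Col9a3*, *Col12a1*, *Col14a1*, *Col22a1*, and *Col26a1*. Each was searched on both strands for CCAAT, which is ATTGG on the other strand, and for TATAAA, which is TTTATA on the other strand. No matches overlapped in the sequences printed. CCAAT was present for 9 of 25 upregulated members with a sequence, 2 of 4 downregulated ones and 37.4% of all 32851 promoter sequences. TATAAA was present for 3 of the 25, 0 of the 4 and 13.6% of all. A match is a description of the letters, not a site or a cause. The sequences shown are those of *Col1a2* and *Col3a1*, the most abundant members in infarcts, of *Col4a1* and *Col4a2*, which face each other and rose together, and of *Col19a1*, which fell. They are printed 5′ to 3′ on the strand of the gene, with matches in capitals. The windows are chr6:4505368-4505667, forward strand for *Col1a2*, chr1:45311288-45311587, forward strand for *Col3a1*, chr8:11312777-11313076, reverse strand for *Col4a1*, chr8:11312555-11312854, forward strand for *Col4a2* and chr1:24587388-24587687, reverse strand for *Col19a1*.
Col1a2: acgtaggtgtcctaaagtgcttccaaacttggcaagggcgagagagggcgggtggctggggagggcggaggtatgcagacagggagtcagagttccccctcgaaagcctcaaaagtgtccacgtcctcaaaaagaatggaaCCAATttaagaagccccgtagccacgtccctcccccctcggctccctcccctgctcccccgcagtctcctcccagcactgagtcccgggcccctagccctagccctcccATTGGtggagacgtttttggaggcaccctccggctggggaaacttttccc
Col3a1: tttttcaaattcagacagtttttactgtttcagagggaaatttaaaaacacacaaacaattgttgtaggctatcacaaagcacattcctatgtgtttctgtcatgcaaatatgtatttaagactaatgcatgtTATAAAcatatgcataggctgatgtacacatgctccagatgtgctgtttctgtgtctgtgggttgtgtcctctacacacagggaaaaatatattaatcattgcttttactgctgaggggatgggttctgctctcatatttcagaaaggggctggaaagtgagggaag
Col4a1: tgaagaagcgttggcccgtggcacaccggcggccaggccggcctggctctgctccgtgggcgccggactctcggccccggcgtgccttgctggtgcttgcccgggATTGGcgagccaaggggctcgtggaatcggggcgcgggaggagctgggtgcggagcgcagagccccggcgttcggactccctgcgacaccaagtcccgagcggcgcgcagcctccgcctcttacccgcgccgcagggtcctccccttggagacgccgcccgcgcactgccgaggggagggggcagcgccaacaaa
Col4a2: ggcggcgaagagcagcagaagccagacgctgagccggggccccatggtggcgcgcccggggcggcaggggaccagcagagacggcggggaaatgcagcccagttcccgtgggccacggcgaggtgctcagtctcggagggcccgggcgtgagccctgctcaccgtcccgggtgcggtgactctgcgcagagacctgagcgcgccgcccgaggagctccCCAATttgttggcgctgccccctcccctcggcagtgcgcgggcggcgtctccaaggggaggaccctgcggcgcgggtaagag
Col19a1: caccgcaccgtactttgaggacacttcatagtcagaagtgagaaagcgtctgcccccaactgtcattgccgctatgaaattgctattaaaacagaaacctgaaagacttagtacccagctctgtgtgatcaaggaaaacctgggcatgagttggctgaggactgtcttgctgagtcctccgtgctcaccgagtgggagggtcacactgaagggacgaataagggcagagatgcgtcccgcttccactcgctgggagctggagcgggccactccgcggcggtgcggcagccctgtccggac

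The match in *Col1a2* begins 109 bases before the start, with ATTGG at the start itself. The windows of *Col4a1* and *Col4a2* overlap. The match of *Col4a2* begins 32 bases before its start and that of *Col4a1*, as ATTGG, 145 bases before its own. *Col3a1* holds TATAAA 117 bases before its start, and *Col19a1* holds neither motif in this window.

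Genes that act on collagen chains or on the finished protein were listed by step. Over all 56 such genes, 53 were tested, 46 were upregulated, 2 were downregulated and 5 were not called, and their median log2 fold change was 2.94. In the endoplasmic reticulum, collagen chains are hydroxylated and glycosylated, and 13 of 15 genes of this list were upregulated (median 2.11). The prolyl hydroxylase subunit genes *P4hb* and *P4ha3* had log2 fold changes of 2.34 and 3.24, and the lysyl hydroxylase gene *Plod1* had one of 3.00. The 2 genes not called were *P4ha2*, at 0.30, and the glycosyltransferase gene *Colgalt2*, at -0.93. Of 10 genes of folding and secretion, 8 were upregulated (median 2.63).

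*Serpinh1*, which encodes the collagen chaperone HSP47, had 175, 121 and 115 CPM (infarcts 1 to 3) against 6.00, 5.20 and 8.48 CPM (contralateral cortices 1 to 3). The infarcts were all far higher, infarct 1 most of all, with a log2 fold change of 4.40 ± 0.25 (SE, edgeR adjusted *p* = 6.30e-07). *Mia3* and *Mia2*, whose products help to load procollagen into transport carriers, had log2 fold changes of 0.12 and 0.38 and were not called. For removal of propeptides, 5 of 7 tested genes were upregulated (median 3.31). They included *Adamts2*, a procollagen N-proteinase gene, at 3.31 and the enhancer gene *Pcolce* at 4.20. *Adamts3*, another N-proteinase gene, was downregulated, with a log2 fold change of -1.51.

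Lysyl oxidases cross-link collagen outside the cell. The 4 tested genes of 5 were upregulated (median 4.91), and *Loxl4* was not tested. *Lox* had 239, 311 and 201 CPM (infarcts 1 to 3) against 3.49, 2.60 and 4.24 CPM (contralateral cortices 1 to 3). Infarct 2 was the highest, as it was for *Col3a1*, and the regions were far apart. The log2 fold change was 6.19 ± 0.26 (SE, edgeR adjusted *p* = 1.64e-07). Among collagen receptors, 9 of 10 tested genes were upregulated (median 3.08). *Mrc2*, an endocytic collagen receptor gene, had a log2 fold change of 4.60, the discoidin receptor gene *Ddr2* had one of 3.22 and the inhibitory leukocyte receptor gene *Lair1* had one of 3.26. *Oscar*, a receptor gene of osteoclasts and myeloid cells, was downregulated, with 2, 5 and 5 counts in infarcts 1, 2 and 3. All 7 genes of collagen breakdown were upregulated (median 5.47), among them *Ctsk*, which encodes the collagenolytic cathepsin K, at 5.47 and *Fap* at 1.94. Thus genes for both synthesis and breakdown of collagen were upregulated in the same infarcts.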

How the data were processed

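RNA-Seq counts of 3 infarcts and 3 contralateral cortices were analyzed. The authors demultiplexed reads of stranded mRNA libraries with bcl2fastq 2.19, trimmed them with Trimmomatic 0.32, aligned them to GRCm38 with STAR 2.5.2b and deposited raw counts per Ensembl gene from HTSeq, without normalization (versions per the submitters' processing notes). The strand setting of the counting is not given in the sources used here. The 5 entries that name no gene, which held 26.6% to 34.3% of tallied reads, were left out. Identifiers were matched to GENCODE M21 (45229 found, 849 not found but kept in the tests).

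Genes were filtered with filterByExpr, scaled with TMM and tested in R 4.3.3 with edgeR 4.0.16 (glmQLFit with robust dispersions, glmQLFTest, region as the only term). *p* values were adjusted by the Benjamini-Hochberg method over 15554 genes, and calls needed an adjusted *p* under 0.05 and at least a doubling or its inverse. Each standard error comes from the fit of that gene. Shares and ratios were compared by exact permutation in SciPy 1.17.1. The procedure was tested on simulated data. Levels between genes were planned per kilobase of exon union, which was replaced by the longest basic protein-coding transcript after seeing the data because unions were inflated. The members, classes, and gene lists were chosen with earlier results of these data known. Full values are given for called genes among the 5 most expressed per kilobase in either region, for the most expressed gene of each class and for all genes downregulated or not called. Alternatives were DESeq2 1.42.0, voom of limma 3.58.1, other scalings and filters, other fold change thresholds, a replicate block and each library left out.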

Additional observations from a re-analysis of the deposited data

How the results depend on the processing

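The counts of upregulated and downregulated collagen chain genes were 29 and 4 with DESeq2, with limma voom, with RLE or upper quartile scaling and without a filter on low counts. They were 30 and 3 with library totals and 28 and 3 with glmTreat. When each library had to hold 10 counts or more, 30 of the 44 genes were tested, 24 were upregulated and 2 were downregulated, and the median log2 fold change was 3.22. Across the other fits of all 6 libraries that gave a median, it was lowest at 2.57, both with DESeq2 and with edgeR without a filter, which each covered all 44 genes, and highest at 2.96 with library totals. With each library left out, 28 to 30 genes were upregulated and 4 to 5 downregulated, and the median was 2.61 to 2.97.

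Of 630 values of the 40 tested genes under alternatives, 620 kept their direction and their side of the threshold. The call was lost in 4 (*Col25a1* and *Col13a1*) and gained in 3 (*Col9a3* and *Col22a1*), and 3 had the opposite sign, all for *Col9a2*, which was not called. Its log2 fold change was 0.15 with library totals and -0.33 to 0.36 with each library left out, and the cause was not tested. The difference in the share of gene counts was 0.898 percentage points, 0.927 without mitochondrially encoded genes, 0.276 without *Col1a1*, *Col1a2*, and *Col3a1*, and 0.836 to 0.936 with each library left out. The number of pathway genes called was 48, and 47 to 49 under the alternatives tried, which need not be the same genes. The log2 ratio of *Col1a1* to *Col1a2* in infarcts changed sign to 0.24 with the planned exon unions as the length.

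The replicate number as a block left the counts at 29 and 4 and the median at 2.81. Libraries with the same number had correlations of -0.19, 0.10 and 0.0011 between their deviations from the region means, and not every library correlated best with its own number, so the numbers were not taken to pair the libraries.

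Depth limits genes with few counts, such as *Col6a4*, *Col24a1*, and the contralateral side of *Col6a5*, whose fold changes are imprecise. The 3 libraries per region allow no permutation *p* under 0.1. Cell content and RNA per cell cannot be told apart.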
